A study of Mus musculus with 9 samples.

Results

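The Hox cluster genes encode homeodomain transcription factors that lie side by side in 4 clusters, HoxA, HoxB, HoxC and HoxD, and carry a paralog number that follows their order along the chromosome. They were taken here as every gene whose symbol is Hoxa, Hoxb, Hoxc or Hoxd followed only by digits, and a gene's value is that of its brightest probe set by the mean over the 9 arrays. Of the 39 such genes in the RefSeq gene table, 33 had a probe set of their own on the array and are the members described, out of 18193 genes and 45101 probe sets in all. HoxA and HoxB gave 9 members each, HoxC 7 and HoxD 8. Hoxd4 was read only by probe sets shared with Hoxd3 and Hoxb8 only by one shared with Hoxb7, and the remaining genes were not analysed here. Neither symbols nor probe sets were chosen by their values, apart from the brightness that picked 1 of several probe sets for 11 members.

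In the embryo the Hox genes specify position along the head-to-tail axis, with low paralog numbers used in the hindbrain and neck and high ones in the tail and limb tips. Trithorax proteins such as Kmt2a keep them active, Polycomb proteins keep them silent, and retinoic acid switches on the first paralogs. In adult bone marrow, blood stem and progenitor cells use mainly HoxA and some HoxB genes, with Meis and Pbx proteins as DNA-binding partners, whereas undifferentiated embryonic stem cells hold the clusters largely silent under Polycomb.

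The study compared 3 cell populations with 3 arrays each. VSEL (very small embryonic-like stem cells) were sorted as Sca-1+, Lin- and CD45- cells, and HSC (haematopoietic stem cells by label) as Sca-1+, Lin- and CD45+ cells. Both were sorted out of bone marrow of C57BL/6 mice at 4 weeks of age. ESC is ESC-D3, a single embryonic stem cell line of strain 129S2/SvPas grown on 0.1% gelatin with 10 ng/ml leukaemia inhibitory factor (LIF), so strain, culture and cell type cannot be told apart in any contrast with it. The labels give no engineered allele or treatment for any group. Each library was made from the lysate of 20 sorted cells by T7-primed cDNA synthesis and PCR, and was hybridised to an Affymetrix mouse expression array. Values are log2 RMA values: RMA subtracts background, adjusts the arrays to each other and combines the probes of each set into one value. A difference of 1 on this scale is a doubling of signal. The deposited values did not share one distribution. Over all probe sets the lower quartile of an array lay at 3.88 to 3.95 in VSEL, above the 3.67 to 3.73 of HSC and the 3.68 to 3.71 of ESC. The upper quartile lay at 6.63 to 6.69 in VSEL, below the 7.12 to 7.18 of HSC and the 7.12 to 7.16 of ESC, so the VSEL values were the more compressed. Probe sets differ in how strongly they bind, so levels were compared between cell populations for the same gene and never between genes as amounts of RNA. With 20 cells a library, fewer cells of a type and less RNA per cell cannot be told apart.

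VSEL arrays 2 and 3 correlated at r = 0.989 and, over probe sets with a pair mean above 9, their difference had an SD of 0.200, against r of 0.831 to 0.957 and SDs of 0.490 to 2.15 for the other pairs within a group. They were averaged and counted as 1 library, VSEL 2+3, which leaves n = 2 for VSEL and n = 3 each for HSC and ESC. Nothing in the labels says that a group's libraries stem from separate mice or cultures. The p-values therefore measure spread among these libraries alone, and that spread may be technical. Against the labels' cell types, the median of 8 pluripotency markers was 9.83 to 9.97 in VSEL libraries, 3.67 to 3.88 in HSC libraries and 12.7 to 12.8 in ESC libraries. The median of 12 stem and progenitor markers lay between 5.85 and 5.96 in VSEL, between 6.21 and 7.25 in HSC and between 5.43 and 5.77 in ESC, and that of 7 T and NK markers was 5.21 to 5.98, 11.9 to 12.7 and 4.64 to 5.14 in the same order. The median of 9 granulocyte and monocyte markers reached 13.3 to 14.7 in VSEL and 13.6 to 14.0 in HSC, against 4.78 to 4.91 in ESC, and 8 of the 9 were higher in VSEL than in ESC. Erythroid and B lineage markers stood higher in VSEL than in HSC. The erythroid median of 6 genes ran from 11.8 to 13.3 in VSEL libraries, from 7.91 to 9.30 in HSC libraries and from 5.28 to 5.80 in ESC libraries, all 6 genes lay above HSC in both VSEL libraries, and 3 of the 6 were called. The B lineage median of 7 genes ran from 9.92 to 10.997 in VSEL libraries, from 5.53 to 8.44 in HSC libraries and from 5.06 to 5.81 in ESC libraries, with 3 of 7 called higher in VSEL than in HSC. The 6 general leukocyte markers separated the VSEL libraries, with a median of 5.12 in VSEL 1 and 9.66 in VSEL 2+3, against 13.3 to 13.5 in HSC and 4.84 to 5.52 in ESC. Of 11 mesenchymal and osteoblast markers 4 were called higher in VSEL than in HSC, and of 6 endothelial markers 0 (limma). Against ESC, 0 of the 11 were called higher in VSEL and 1 lower. The median of the 11 was 5.79 to 6.02 in VSEL libraries, 4.61 to 5.24 in HSC libraries and 5.26 to 5.79 in ESC libraries. Beside these marker counts, 8.01% of all genes were called higher and 9.18% lower in VSEL than in HSC. Against ESC the shares were 6.38% and 10.5%. The part that these cell types in the sorted gates have in the Hox values was not tested.

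Promoters of 3 members are shown because the results turn on them: Hoxa9 and Hoxc4 were higher in VSEL than in both other populations, and Hoxa7 was the member on which the VSEL libraries differed. Each is the 250 bases before the transcription start, 5′ to 3′ on the gene's own strand, from RefSeq on build GRCm38.p6, and capitals mark the GC box GGGCGG, the core of an Sp1 site. For Hoxa7 and Hoxa9 that start is the first base of the annotated gene, whereas for Hoxc4 it lies 16298 bases inside the annotated span, so the Hoxc4 stretch precedes an internal start.
Hoxa7 (chr6:52218574-52218823, minus strand): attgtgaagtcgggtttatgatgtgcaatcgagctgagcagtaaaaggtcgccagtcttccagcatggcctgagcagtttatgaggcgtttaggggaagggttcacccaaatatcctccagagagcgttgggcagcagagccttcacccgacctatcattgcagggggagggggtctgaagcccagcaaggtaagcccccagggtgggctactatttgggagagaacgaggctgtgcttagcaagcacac
Hoxa9 (chr6:52227371-52227620, minus strand): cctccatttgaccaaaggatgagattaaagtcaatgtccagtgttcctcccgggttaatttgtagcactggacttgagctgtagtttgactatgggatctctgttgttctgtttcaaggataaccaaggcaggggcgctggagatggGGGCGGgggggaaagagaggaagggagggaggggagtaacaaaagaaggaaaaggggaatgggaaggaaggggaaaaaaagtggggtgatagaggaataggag
Hoxc4 (chr15:103034145-103034394, plus strand): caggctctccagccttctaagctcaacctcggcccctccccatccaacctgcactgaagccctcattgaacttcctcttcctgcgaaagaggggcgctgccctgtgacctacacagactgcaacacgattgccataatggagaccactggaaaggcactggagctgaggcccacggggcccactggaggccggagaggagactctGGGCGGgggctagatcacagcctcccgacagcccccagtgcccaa
Both strands were searched for the TATA box (TATAAA), the CCAAT box (CCAAT), the GC box and the Hox-Pbx site (TGATNNAT), none of which contains another. Hoxa9 and Hoxc4 each held 1 GC box and none of the other motifs, and Hoxa7 held none of the 4. Of 32851 promoters of the same length, 32.7% held the GC box, 33.9% the CCAAT box, 12.4% the TATA box and 7.68% the Hox-Pbx site. A match describes these letters only. Of the 33 members, 19 had a promoter entry, and no entry for Hoxc5, Hoxc6 or Hoxc9 was at hand.

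Most Hox genes read at or near background in all 3 populations. As a yardstick, 150 genes of olfactory, vomeronasal and taste receptors, keratin-associated proteins, beta-defensins and crystallins, mostly silent in marrow and in embryonic stem cells, served as silent reference genes. The 95th percentile of these genes lay at 6.67 to 6.92 in VSEL libraries, 6.18 to 6.40 in HSC libraries and 6.22 to 6.43 in ESC libraries. Of the 33 Hox genes, 5 exceeded it in each VSEL library, 4 to 6 in the HSC libraries and 5 to 10 in the ESC libraries. The share of all genes above it ran from 35.1% to 38.7% over VSEL libraries, from 45.7% to 50.8% over HSC libraries and from 47.5% to 50.4% over ESC libraries. The Hox median lay between 4.83 and 4.95 in VSEL, between 4.60 and 4.67 in HSC and between 4.45 and 4.83 in ESC, so the VSEL libraries were the highest of the marrow libraries. The median of the silent reference genes was also higher in the VSEL libraries, at 4.24 in both, than in HSC at 3.82 to 3.92 and in ESC at 3.83 to 3.91. The plot of levels shows every member beside that yardstick. A level below the yardstick does not show that a gene is off, since a probe set can bind weakly.

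**Figure D1:**
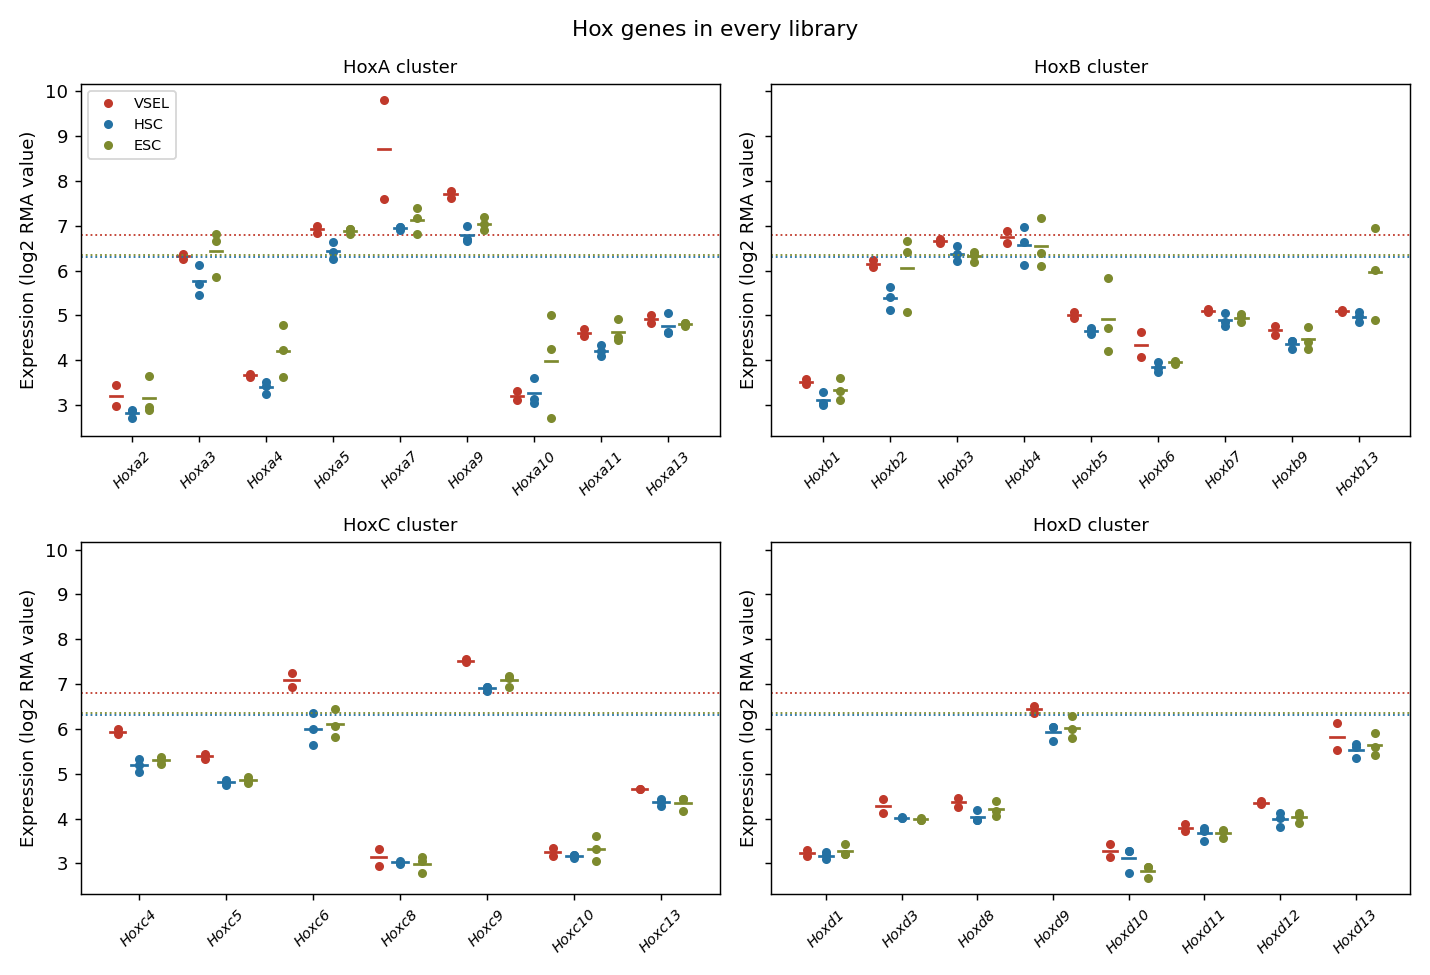
Log2 RMA level (y axis) of the 33 Hox genes by cluster, 1 point per library and a short bar at each group's mean, with VSEL, HSC and ESC from left to right for each gene and a dotted line at each group's mean 95th percentile of the silent reference genes (6.79, 6.30 and 6.35). Hoxa7 in VSEL 1, at 9.82, is the highest point, and most members lie below the dotted lines in every group.

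Against HSC, the Hox genes that passed the test were all higher in VSEL: Hoxa9, Hoxc4, Hoxc5, Hoxc6 and Hoxc9. The count is 5 higher and 0 lower of 33, or 15.2%, at a Benjamini-Hochberg adjusted p of 0.05 in limma over all genes. Of all 18193 genes, 8.01% were called higher, 9.18% lower and 17.2% in either direction. Against ESC, 3 Hox genes, Hoxa9, Hoxc4 and Hoxc5, were higher in VSEL and 0 were lower, which is 9.09% beside a background of 6.38% higher, 10.5% lower and 16.9% in either direction. The tests against HSC and against ESC share the VSEL libraries. Between HSC and ESC limma called 0 of 33 members, with 3 at an unadjusted p under 0.05, where 6.99% of all genes were called higher, 9.93% lower and 16.9% in either direction. A moderated F test over the 3 populations called 4 members, Hoxa9, Hoxc4, Hoxc5 and Hoxc9, against 25.5% of all genes.

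The silent reference genes moved with the Hox genes. In VSEL against HSC their median difference was 0.35, against 0.32 for the Hox genes and 0.22 for all genes, and 20 of the 150 were called higher and 1 lower. In VSEL against ESC the medians were 0.29 for the silent reference genes, 0.18 for the Hox genes and 0.11 for all genes, with 17 silent reference genes called higher and 0 lower. In HSC against ESC they were 0.01 for the silent reference genes, -0.11 for the Hox genes and -0.04 for all genes. When each library was shifted so that the silent reference medians were equal, an alternative chosen after seeing the data, limma called 0 Hox genes in VSEL against HSC, with 3 at an unadjusted p under 0.05, and 0 in VSEL against ESC, with 2. That shift moves the median of all genes to -0.14 against HSC and -0.25 against ESC. For members near the silent reference level, a higher reading of dim genes on VSEL arrays and a higher gene level cannot be told apart. Among genes whose mean lay above the median of all genes, the median difference was -0.22 against HSC and -0.52 against ESC. For the 6 Hox genes in that set it was 0.55 and 0.40. Their mean levels ran from 6.43 (Hoxb3) to 7.46 (Hoxa7). The upper quartile of all genes was 7.63 to 8.63 over the libraries, and the 2 sets were not matched for level. The part of the array-wide shift in those differences was not tested. The plot of differences gives each member with its standard error beside the range of the silent reference genes.

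**Figure D2:**
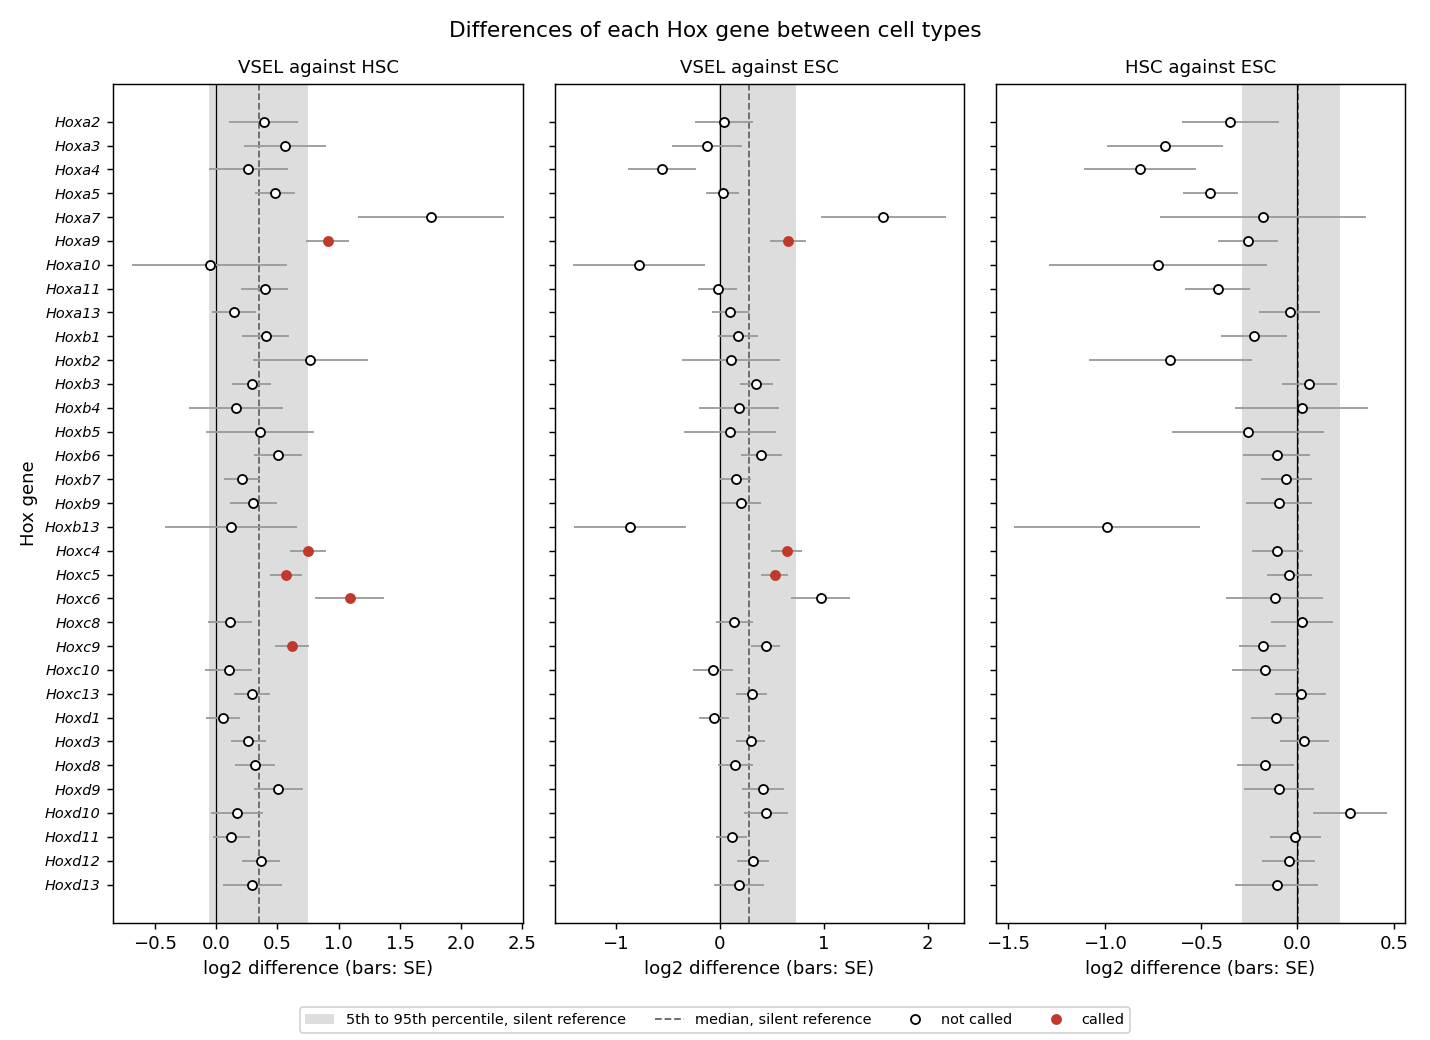
Log2 difference (x axis) of each of the 33 Hox genes in VSEL against HSC, VSEL against ESC and HSC against ESC, with bars of 1 standard error, filled points for genes called at an adjusted p of 0.05, and, for the silent reference genes, shading from the 5th to the 95th percentile and a dashed line at the median. In VSEL against HSC, 32 of 33 differences are above 0 and 29 lie within the shaded range of -0.06 to 0.75.

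HoxC held most of the calls. It counted 4 of its 7 members higher in VSEL than in HSC, HoxA 1 of 9, and HoxB 0 of 9 and HoxD 0 of 8 in limma, where each had 1 member at an unadjusted p under 0.05. The median difference in VSEL against HSC was 0.57 in HoxC, 0.40 in HoxA, 0.30 in HoxB and 0.28 in HoxD. In VSEL against ESC it was 0.44 in HoxC, 0.24 in HoxD, 0.18 in HoxB and 0.03 in HoxA, with 2 calls in HoxC and 1 in HoxA. No test compared the clusters with each other.

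Hoxa9, which drives self-renewal of blood progenitors and is a common partner in leukaemia, had log2 levels of 7.79 in VSEL 1 and 7.61 in VSEL 2+3, of 6.71, 7.002 and 6.65 in HSC, and of 7.19, 6.90 and 7.05 in ESC. Both VSEL libraries lay above every HSC and ESC library. The difference was 0.91 ± 0.17 (SE) against HSC, a 1.88-fold higher signal, with a limma adjusted p of 0.0193, and 0.66 ± 0.17 against ESC with an adjusted p of 0.0494. With the silent reference medians made equal it was 0.56 against HSC (adjusted p = 0.0979) and 0.29 against ESC (adjusted p = 0.339). Over all alternatives it ran from 0.56 to 1.56 against HSC and from 0.02 to 1.35 against ESC. Hoxa9 was called in both contrasts after a further quantile normalization and after cyclic loess. The call against HSC was kept in 5 of the 8 fits that left out 1 library, and lost without VSEL 1, HSC 1 or HSC 3, with adjusted p between 0.0238 and 0.0622 over the 8. The call against ESC was kept in 0 of 8, with adjusted p of up to 0.138. A second, dimmer Hoxa9 probe set differed by 0.27 against HSC (adjusted p = 0.766 over all probe sets) and by -0.62 against ESC (adjusted p = 0.503).

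Hoxc4, whose loss in mice disturbs the oesophagus and the vertebrae, read 5.89 in VSEL 1 and 6.00 in VSEL 2+3, against 5.04, 5.34 and 5.20 in HSC and 5.38, 5.21 and 5.30 in ESC. The VSEL libraries lay above all others, and no library reached the silent reference's 95th percentile. The difference was 0.75 ± 0.15 (SE) against HSC (limma adjusted p = 0.0215) and 0.64 ± 0.15 against ESC (adjusted p = 0.0329). Of the 8 fits that left out 1 library, the call against HSC was kept in 6 and lost without VSEL 2+3 or HSC 3, where adjusted p reached 0.0615. The call against ESC was kept in 2, without HSC 1 or HSC 2, and adjusted p reached 0.0931 in the others. With the silent reference medians equal, the differences were 0.39 (adjusted p = 0.139) and 0.28 (adjusted p = 0.259).

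Hoxc5, a gene of the neck region of the embryo, read 5.45 in VSEL 1 and 5.32 in VSEL 2+3, against 4.75, 4.83 and 4.87 in HSC and 4.78, 4.93 and 4.86 in ESC. Both VSEL libraries lay above every HSC and ESC library, while HSC and ESC overlapped. The differences were small, 0.57 ± 0.13 (SE) against HSC (limma adjusted p = 0.0322) and 0.53 ± 0.13 against ESC (adjusted p = 0.0403). Neither call was kept in any of the 8 fits that left out 1 library, with adjusted p of 0.0518 to 0.0898 against HSC and 0.0512 to 0.108 against ESC. A second Hoxc5 probe set differed by 0.62 against HSC (adjusted p = 0.0402 over all probe sets), and the third by 0.21 (adjusted p = 0.213).

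Hoxc6, a gene of the upper thoracic region, read 7.25 in VSEL 1 and 6.93 in VSEL 2+3, against 5.64, 6.35 and 5.99 in HSC and 6.45, 5.82 and 6.08 in ESC. Both VSEL libraries lay above all others, and the group mean exceeded the silent reference's 95th percentile in VSEL but not in HSC or ESC. The difference against HSC was 1.09 ± 0.28 (SE), a 2.13-fold higher signal (limma adjusted p = 0.0458), and against ESC 0.97 ± 0.28 (adjusted p = 0.0623). The call against HSC was kept in 1 of the 8 fits that left out 1 library, the one without HSC 2, and adjusted p rose to as much as 0.137 in the others. The probe set read here is of the kind whose probes can match other transcripts. A second set without that mark gave 1.21 against HSC (adjusted p = 0.0128 over all probe sets) and 1.11 against ESC (adjusted p = 0.0163), and the third gave 0.37 against HSC (adjusted p = 0.116). After the silent reference medians were made equal, Hoxc6 still differed by 0.74 against HSC, with an adjusted p of 0.155.

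Hoxc9, which sets the thoracic identity of motor neurons in the spinal cord, read 7.56 in VSEL 1 and 7.48 in VSEL 2+3, against 6.93, 6.94 and 6.84 in HSC and 7.13, 6.94 and 7.17 in ESC. All 8 libraries lay above their own silent reference's 95th percentile. The difference was 0.62 ± 0.14 (SE) against HSC (limma adjusted p = 0.0293) and 0.44 ± 0.14 against ESC (adjusted p = 0.0723). The call against HSC was kept in 2 of the 8 fits that left out 1 library, those without ESC 2 or ESC 3, and adjusted p reached 0.0796. With the silent reference medians equal, the difference against HSC was 0.27 (adjusted p = 0.296). Over all alternatives it ran from 0.27 to 1.28 against HSC and from 0.07 to 1.13 against ESC. Hoxc9 was called in both contrasts after a further quantile normalization and after cyclic loess.

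The count against HSC changed with every library left out: 1 member was called without VSEL 1, 3 without VSEL 2+3, 1 without HSC 1, 3 without HSC 2, 0 without HSC 3, 2 without ESC 1, 3 without ESC 2 and 3 without ESC 3. Against ESC it was 0 without VSEL 1, 1 without VSEL 2+3, 1 without HSC 1, 1 without HSC 2 and 0 without HSC 3 or any ESC library. Without VSEL 1 or VSEL 2+3 the VSEL group is 1 library, so calls in those fits hold no spread among VSEL libraries. The plot of calls by setting shows the counts beside those under other normalizations, filters and fits.

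**Figure D3:**
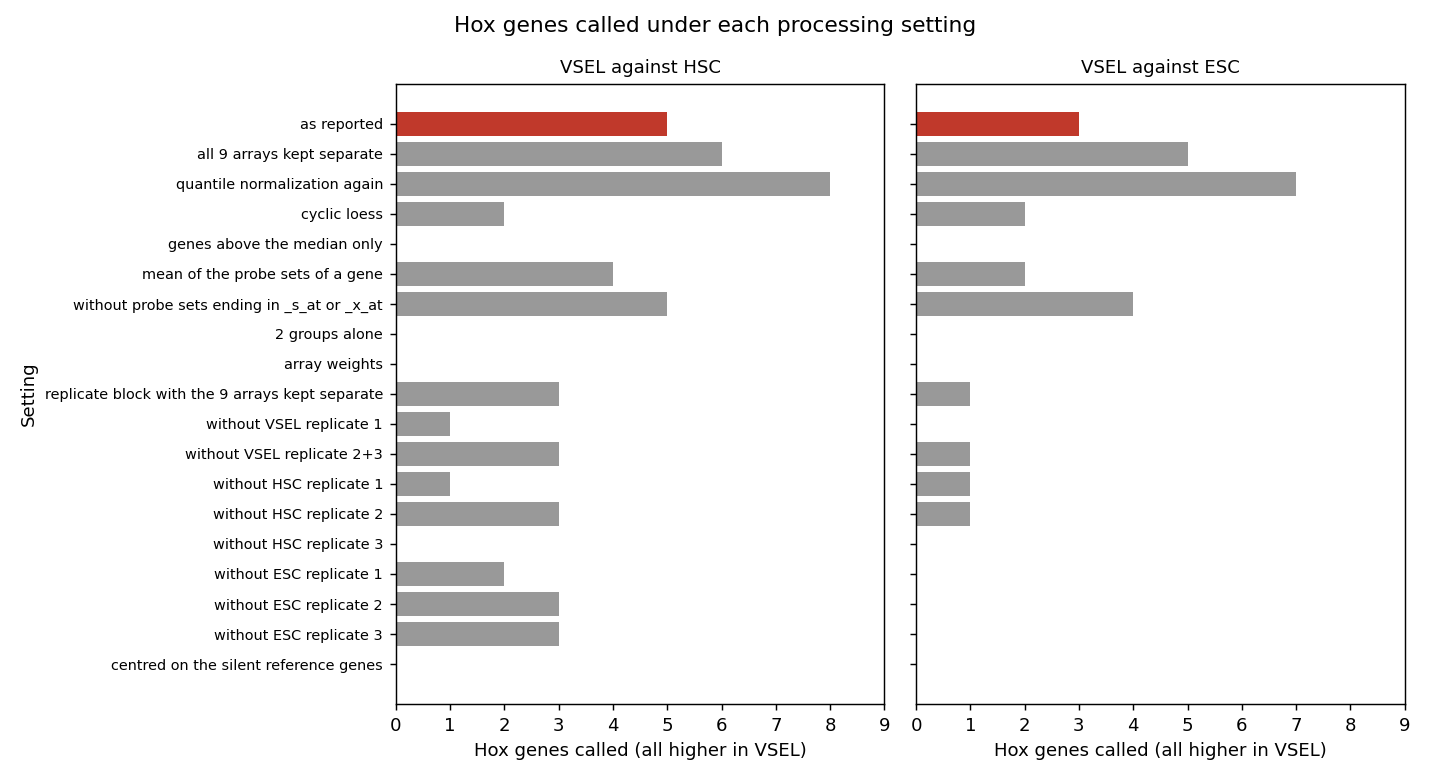
Number of Hox genes called (x axis) in VSEL against HSC and VSEL against ESC, all higher in VSEL, under each processing alternative (rows). The count against HSC is 5 as reported and runs from 0 to 8 over the alternatives, and that against ESC is 3 and runs from 0 to 7.

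Among the blood progenitor Hox genes, Hoxa7 had the largest difference of the 33 members in VSEL against HSC and against ESC but was not called in either. After a further quantile normalization it was called in both. It read 9.82 in VSEL 1 and 7.60 in VSEL 2+3, against 6.98, 6.92 and 6.97 in HSC and 7.18, 6.82 and 7.41 in ESC. VSEL 1 stood far above all other libraries, while VSEL 2+3 stood just above the highest ESC library. The difference was 1.76 ± 0.60 (SE) against HSC (limma adjusted p = 0.0913) and 1.58 ± 0.60 against ESC (adjusted p = 0.119). Without VSEL 2+3 the difference against HSC was 2.86, and without VSEL 1 it was 0.65. Each of these fits leaves 1 VSEL library and so holds no spread among VSEL libraries. VSEL 1 exceeded VSEL 2+3 by 2.21 for Hoxa7, while the other 32 members differed between the VSEL libraries by -0.47 to 0.59. A gap at least as large was found for 2351 genes, 12.9% of all. The median absolute gap between the VSEL libraries was 0.17 over the Hox genes and 0.34 over all genes, and 1 Hox gene against 23.5% of all genes passed 1.

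The other members used by blood progenitors, Hoxa5, Hoxa10, Hoxb3 and Hoxb4, had no call in any contrast of the reported fit. After a further quantile normalization, Hoxa5 and Hoxb3 were called higher in VSEL than in HSC and than in ESC. With all 9 arrays kept separate, Hoxa5 was called higher in VSEL than in HSC. Hoxa5, which also patterns the lung, read 6.84 and 7.002 in VSEL, 6.64, 6.42 and 6.26 in HSC and 6.93, 6.81 and 6.93 in ESC. It was lowest in HSC, whose libraries overlapped with no other group, with differences of 0.48 ± 0.16 (SE) in VSEL against HSC (limma adjusted p = 0.0876) and -0.45 ± 0.14 in HSC against ESC (adjusted p = 0.0917). The Hoxa5 probe set read here is also of the kind whose probes can match other transcripts, and the gene's second set differed by 0.10 in VSEL against HSC. Hoxa10, which acts in progenitors and in the uterus, read 3.12 and 3.31 in VSEL and 3.61, 3.14 and 3.06 in HSC, but 5.01, 4.26 and 2.70 in ESC, so that its ESC libraries lay both above and below those of the other groups. Its difference in VSEL against ESC was -0.78 (adjusted p = 0.421).

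Hoxb4, whose forced expression expands blood stem cells, read 6.61 and 6.88 in VSEL, 6.64, 6.13 and 6.98 in HSC and 6.39, 6.11 and 7.18 in ESC. The 3 groups overlapped throughout, and its differences were 0.16 in VSEL against HSC (limma adjusted p = 0.785) and 0.02 in HSC against ESC (adjusted p = 0.980). Hoxb3, its neighbour in the cluster, read 6.63 and 6.71 in VSEL, 6.55, 6.20 and 6.38 in HSC and 6.41, 6.35 and 6.19 in ESC. The VSEL libraries were above the others by a small margin, and the difference against HSC was 0.29 (adjusted p = 0.236). A second Hoxb3 probe set read 5.54 in HSC 3 and 3.29 to 3.65 in all other libraries. The annotated spans overlap in 6 pairs of Hox genes, Hoxb3 and Hoxb4 among them, so a probe set there may read a transcript of its neighbour.

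The first paralogs Hoxb1 and Hoxd1 were near background. Hoxb1, which retinoic acid induces in the hindbrain, read 3.58 and 3.47 in VSEL, 3.30, 3.01 and 3.06 in HSC and 3.12, 3.61 and 3.31 in ESC, with a difference of 0.40 in VSEL against HSC (limma adjusted p = 0.185). Hoxd1 read 3.17 and 3.29 in VSEL, 3.09, 3.25 and 3.18 in HSC and 3.21, 3.21 and 3.43 in ESC, with a difference of 0.06 in VSEL against HSC. Both genes were far below the silent reference's 95th percentile in all 8 libraries. Hoxa3, needed for the thymus and parathyroid in mice, read 6.27 and 6.37 in VSEL, 6.12, 5.70 and 5.46 in HSC and 6.81, 6.67 and 5.86 in ESC. Its HSC libraries were below both VSEL libraries but overlapped ESC, and the difference in HSC against ESC was -0.68 ± 0.30 (SE; adjusted p = 0.208). A second Hoxa3 probe set read 5.02, 4.02 and 4.36 in HSC, against 5.61, 6.83 and 6.06 in ESC. In the limma fit over all 45037 probe sets it was the single Hox probe set of 48 called in that contrast, at -1.70 (adjusted p = 0.0370). Of all probe sets, 10.6% were called in either direction there. The called Hoxa3 set is also of the kind whose probes can match other transcripts. The gene's remaining sets differed by -0.05 and 0.08 in HSC against ESC.

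The remaining 20 members, spread over all 4 clusters and including the other HoxD genes, had 0 calls in limma in every contrast, with 2 at an unadjusted p under 0.05 when VSEL were set against HSC, 0 when set against ESC, and 2 between HSC and ESC. Their differences in VSEL against HSC ran from 0.10 (Hoxc10) to 0.77 (Hoxb2), all above 0, and the lowest adjusted p was 0.121, of Hoxb6. In VSEL against ESC they ran from -0.87 (Hoxb13) to 0.45 (Hoxd10). Hoxb13, a gene of the tail and prostate, read 5.08 and 5.11 in VSEL and 5.07, 4.87 and 4.99 in HSC, but 6.02, 4.91 and 6.96 in ESC. Its ESC libraries thus spanned the marrow level and well above it. Hoxb2, a hindbrain gene, read 6.24 and 6.08 in VSEL and 5.12, 5.41 and 5.64 in HSC, with 6.65, 5.08 and 6.41 in ESC. ESC 2 was the low ESC library for both, and without it the fit called Hoxb13 and Hoxb2 lower in HSC than in ESC. Without ESC 3 it called Hoxa10 and Hoxa4 lower in HSC than in ESC.

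Over all members, both VSEL libraries lay above every HSC library for 24 of 33 Hox genes and below for 0, where 37.8% of all genes lay above and 17.3% below. Against ESC the counts were 14 above and 0 below, where all genes gave 33.0% and 22.6%. HSC lay above ESC for 0 members and below for 5, beside 16.5% and 21.5% of all genes. The VSEL libraries lay above HSC for 94 of the 150 silent reference genes and below for 4. Genes in the same range of mean level as the members, 11521 in number, had a median difference of 0.32 when VSEL were set against HSC, 0.22 when set against ESC, and -0.04 between HSC and ESC. The plot of difference distributions sets the Hox genes against the silent reference genes and all genes.

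**Figure D4:**
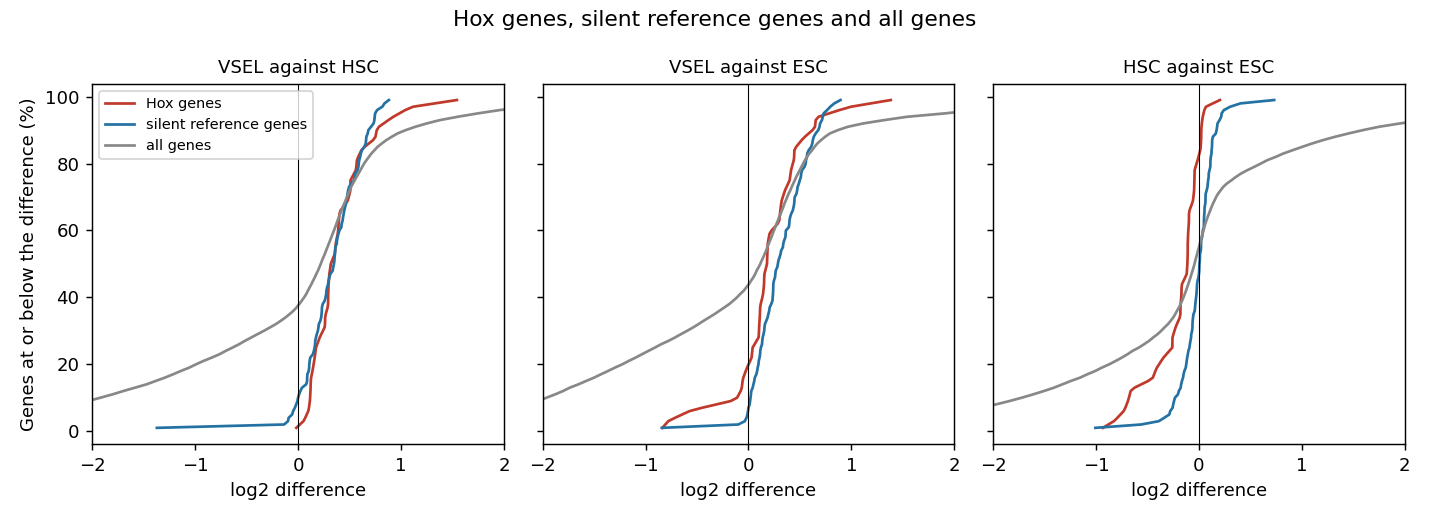
Cumulative share of genes (y axis, percent) by log2 difference (x axis) for the Hox genes, the silent reference genes and all genes in VSEL against HSC, VSEL against ESC and HSC against ESC. In VSEL against HSC the medians are 0.32, 0.35 and 0.22, and the Hox curve runs close to that of the silent reference.

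When each of the 48 Hox probe sets was fitted on its own, 7 were higher and 0 lower in VSEL than in HSC. Against ESC, 5 were higher and 0 lower. Of all probe sets, 14.2% and 14.1% were called in either direction, and the share called higher alone was not counted. Of the 11 members with several probe sets, all sets of a gene had the same sign for 9 when VSEL were set against HSC, 5 when set against ESC, and 8 between HSC and ESC. The 2 probe sets shared by Hoxd4 and Hoxd3 read 4.76 to 5.21 and 4.90 to 5.91 on the VSEL arrays, and the one shared by Hoxb8 and Hoxb7 read 3.10 to 3.51. These values were near those of the silent reference genes and cannot be assigned to 1 gene.

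Of 3 noncoding antisense genes of the clusters, Hoxa11os, Hoxb5os and Hoxd3os1, 1 was called. Hoxa11os, transcribed opposite to Hoxa11, read 4.996 and 4.85 in VSEL, 4.20, 4.14 and 4.22 in HSC and 5.04, 5.38 and 5.42 in ESC. It was lower in HSC than in ESC by 1.09 ± 0.15 (SE; limma adjusted p = 0.00362), a call kept in all 8 fits that left out 1 library. It was also called higher in VSEL than in HSC, by 0.74 (adjusted p = 0.0309), but with the silent reference medians equal that value was 0.38 (adjusted p = 0.187), and the call was kept in 2 of 8 fits, those without ESC 1 or ESC 3. Hoxa11 itself read 4.70 and 4.53 in VSEL, 4.11, 4.35 and 4.20 in HSC and 4.53, 4.45 and 4.92 in ESC, with -0.41 in HSC against ESC (adjusted p = 0.178).

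Cofactors and regulators of the Hox genes are given by list. Beside their counts, 8.01% of all genes were called higher and 9.18% lower in VSEL than in HSC. In VSEL against ESC the shares were 6.38% and 10.5%, and in HSC against ESC 6.99% and 9.93%. Of 10 measured TALE homeodomain cofactors (the Meis, Pbx, Pknox and Tgif genes), 0 were higher and 2 lower in VSEL than in HSC, 0 and 1 in VSEL against ESC, and 1 and 1 in HSC against ESC. Meis3, a Hox cofactor of the hindbrain, read 7.12 and 6.84 in VSEL, against 8.64, 8.59 and 8.56 in HSC and 6.74, 7.06 and 7.32 in ESC. It was lower in VSEL than in HSC by 1.62 ± 0.20 (SE; limma adjusted p = 0.00439) and higher in HSC than in ESC by 1.56 (adjusted p = 0.00195), and both calls were kept in all 8 fits that left out 1 library. Meis1, the usual partner of Hoxa9, read 5.54 and 5.46 in VSEL, 5.04, 5.09 and 5.09 in HSC and 5.09, 4.75 and 5.01 in ESC and was not called.

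Of 16 trithorax and activator genes, 0 were higher and 3 lower in VSEL than in HSC, 0 and 2 in VSEL against ESC, and 2 and 2 in HSC against ESC. Kmt2a, the trithorax methyltransferase that maintains Hox expression, read 7.17 and 6.35 in VSEL, against 8.76, 9.46 and 8.57 in HSC and 6.04, 5.56 and 5.87 in ESC. VSEL lay below HSC and above ESC in every library. The difference was -2.17 ± 0.36 (SE) in VSEL against HSC (limma adjusted p = 0.0125) and 3.10 in HSC against ESC (adjusted p = 0.00119). Psip1, which tethers Kmt2a to chromatin, was lower in VSEL than in ESC by 2.81 ± 0.32 (adjusted p = 0.00372), and Kmt2d, a related methyltransferase, was lower in VSEL than in HSC by 3.93 ± 0.59 (adjusted p = 0.00902). Ash2l, of the same list, was highest in ESC. It differed by -2.66 ± 0.35 in VSEL against ESC (limma adjusted p = 0.00558) and by -3.61 ± 0.31 in HSC against ESC (adjusted p = 0.000521). Of 12 repressor genes, 1 was higher and 2 lower in VSEL than in HSC, 1 and 2 in VSEL against ESC, and 0 and 5 in HSC against ESC. Ezh2, the methyltransferase of Polycomb repressive complex 2, read 11.7 and 12.2 in VSEL, against 8.58, 8.66 and 9.26 in HSC and 9.91, 10.4 and 9.97 in ESC. It was higher in VSEL than in HSC by 3.11 ± 0.29 (SE; limma adjusted p = 0.00141) and higher than in ESC by 1.84 ± 0.29 (adjusted p = 0.0105). Eed, a subunit of the same complex, went the other way and read 7.75 and 8.12 in VSEL, against 9.40, 9.22 and 9.16 in HSC and 11.02, 11.13 and 10.74 in ESC. It was lower in VSEL than in HSC, by -1.32 ± 0.19 (adjusted p = 0.00796), and than in ESC, by -3.02 ± 0.19 (adjusted p = 0.000831). These 4 calls were kept in all 8 fits that left out 1 library. Of the Polycomb repressive complex 1 subunits, Ring1 differed by -1.82 in VSEL against HSC (adjusted p = 0.0293) and Rnf2 by -2.29 in VSEL against ESC (adjusted p = 0.0468). The Ring1 call was lost without VSEL 1, HSC 1 or ESC 3 (adjusted p of up to 0.0956), and the Rnf2 call was kept only without HSC 1 or HSC 2 (up to 0.136 in the others). Gmnn, a replication inhibitor that also binds Hox proteins, was lower in HSC than in ESC by 2.71 (adjusted p = 0.0104).

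Of 15 retinoic acid genes, 1 was higher and 0 lower in VSEL than in HSC, 1 and 2 in VSEL against ESC, and 0 and 4 in HSC against ESC. Crabp1, a cytoplasmic binding protein for retinoic acid, read 8.37 and 8.25 in VSEL, against 5.50, 5.01 and 5.11 in HSC and 10.3, 10.9 and 11.4 in ESC. The 3 groups were ordered HSC, VSEL, ESC without overlap, with differences of 3.10 ± 0.33 (SE) in VSEL against HSC (limma adjusted p = 0.00235) and -2.57 ± 0.33 in VSEL against ESC (adjusted p = 0.00542). Of the 9 Cdx, ParaHox and Evx genes, 1 was higher in VSEL than in HSC and 0 lower, 2 were higher and 1 lower in VSEL against ESC, and 0 higher and 1 lower in HSC against ESC. Cdx1, an activator of Hox genes in the embryo, was lower in HSC than in ESC by 1.68 ± 0.26 (adjusted p = 0.00651).

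Of 22 measured genes that flank the clusters, 4 were higher and 2 lower in VSEL than in HSC, or 18.2% and 9.09%. In VSEL against ESC the counts were 2 and 3, or 9.09% and 13.6%, and in HSC against ESC 1 and 5, or 4.55% and 22.7%. The shares of all genes given above for the lists apply here too. Skap1, a T cell adaptor protein beside HoxB, read 4.81 and 5.54 in VSEL, against 11.9, 12.2 and 11.5 in HSC and 4.94, 6.41 and 4.75 in ESC. It was lower in VSEL than in HSC by 6.71 ± 0.54 (SE; limma adjusted p = 0.000792), and 5 of 7 T and NK markers were also lower in VSEL than in HSC. Their part in the Skap1 difference was not tested. Calcoco2, an autophagy receptor also beside HoxB, read 6.77 and 6.37 in VSEL, 4.72, 4.96 and 4.99 in HSC and 9.21, 8.97 and 9.21 in ESC, and was called in all 3 contrasts. Its difference was 1.68 ± 0.19 in VSEL against HSC (adjusted p = 0.00263). The 9 HoxB members themselves had no call in any contrast of the reported fit. The plot of related genes shows Meis3, Tgif2, Cdx1, Crabp1, Kmt2a, Kmt2d, Psip1, Ezh2, Eed, Calcoco2, Skap1 and Hoxa11os. It leaves out Meis1, Ring1, Rnf2 and Gmnn, among other listed genes.

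**Figure D5:**
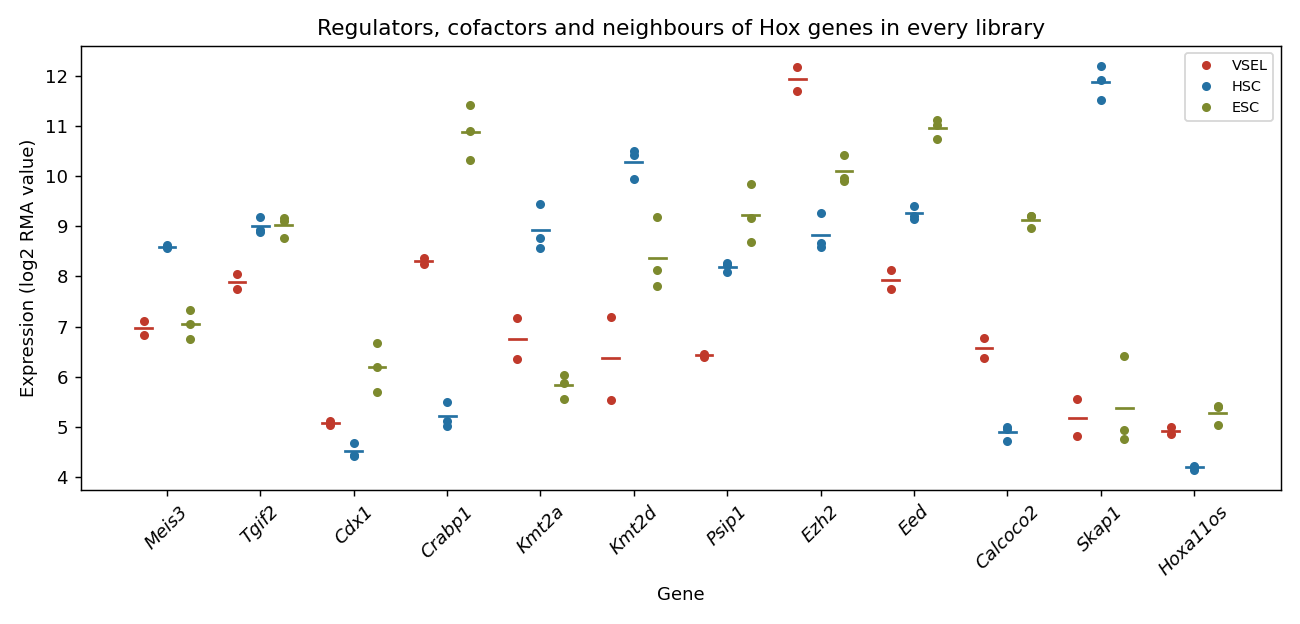
Log2 RMA level (y axis) of some of the called cofactors, regulators and flanking genes and of Hoxa11os, 1 point per library and a short bar at each group's mean, with VSEL, HSC and ESC from left to right. Meis3, Kmt2a, Kmt2d and Skap1 are highest in HSC, and the VSEL points of Crabp1 and Calcoco2 lie between those of HSC and ESC.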

How the data were processed

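The 9 arrays held 3 libraries of each population. The deposited values are log2 values per probe set, made with RMA in Partek 6.5, per the submitters' processing notes; the settings were not given in the sources used here. They were used as deposited. The table held 45101 probe sets: 64 array controls were left out, 34945 had 1 annotated gene, and 932 with several genes were not used for gene values. Symbols were updated through gene identifiers in RefSeq for 34741 and kept for 204. Each of 18193 genes took the value of its brightest probe set.

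The 8 libraries were fitted in R 4.3.3 with lmFit and eBayes of limma 3.58.1 (two-sided, 5 residual degrees of freedom, prior 1.37), adjusted by Benjamini-Hochberg over all genes of a contrast and called at 0.05. The fit assumes equal spread in the 3 populations. The script was tested on simulated data. The members, gene lists and reference genes were chosen with earlier results of these data known. Described in full were members that were called, members whose group mean exceeded the silent reference's 95th percentile, and a set of blood and retinoic acid Hox genes. Alternatives were another normalization (quantile or cyclic loess), a filter on dim genes, other probe set choices, 2-group fits, array weights, a replicate block, libraries left out and the silent reference centring. The number of arrays limits the precision.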

Additional observations from a re-analysis of the deposited data

How the results depend on the processing

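The calls reported were 5 Hox genes for VSEL against HSC, 3 for VSEL against ESC and 0 for HSC against ESC, and no setting tried reversed a called difference. In VSEL against HSC the count was 8 after quantile normalization again (all genes' median difference 0.16 instead of 0.22), 2 after cyclic loess (0.06), and 0 among genes above the median (6 Hox genes tested, 3 at an unadjusted p under 0.05), with the 2 groups alone (7), with array weights (7) and centred on the silent reference genes (3). In VSEL against ESC it was 5 with all 9 arrays kept separate and 7 after quantile normalization again, and 0 among genes above the median (2 at an unadjusted p under 0.05), with the 2 groups alone (5), with array weights (6) and centred on the silent reference genes (2). Hoxa5, Hoxa7, Hoxa9, Hoxb3, Hoxc4, Hoxc6 and Hoxc9 were called in both VSEL contrasts after quantile normalization again, and Hoxd9 against HSC alone. After cyclic loess only Hoxa9 and Hoxc9 were called, and Hoxc5 was called under neither. In HSC against ESC, 1 gene was lower with the mean of the probe sets (Hoxa3) and 1 with array weights (Hoxa5). Leaving out each library gave 0 to 3 calls for VSEL against HSC, 0 to 1 for VSEL against ESC and 0 to 2 for HSC against ESC. Whether the replicate numbers pair the samples is not known. Correlations of deviations between arrays of the same number ran from -0.09 to 0.16, 1 of 9 above 0.1. With 3 arrays a group, and VSEL arrays 2 and 3 near identical, they cannot exclude a pairing. The replicate block with 9 arrays gave 3, 1 and 0 calls in these 3 contrasts. Over the Hox genes and settings, 1588 values stayed on their side of the threshold, 89 lost a call and 24 gained one. Where a count moved, the cause was not tested. Most members lie near the level of silent genes, where a difference can be understated, and 2 VSEL libraries limit every contrast with VSEL.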
